A study of Homo sapiens with 24 samples.

Results

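CCN1, CCN2, AMOTL1, AMOTL2, AJUBA, LATS2, ANKRD1, AXL, NUAK2 and CRIM1 are 10 well-known target genes of the transcriptional co-activator YAP and the TEAD transcription factors. Their H3K27Ac, a histone acetylation found at active promoters and enhancers, was followed in human mammary epithelial cells with and without knockdown of ANCO1, the protein made from ANKRD11. A region was assigned to a gene where the authors' annotation named that gene over the region or within 10 kb on either side, and CCN1 and CCN2 were also read under their older symbols CYR61 and CTGF. This gave 255 of 171345 regions over the 6 deposited tables. No region named more than 1 of the 10 genes. In the direct comparison of knockdown with control, 70 of 50284 tested regions belonged to these genes in 10A cells and 58 of 44790 in DCIS cells.

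In the Hippo pathway, a kinase cascade that ends in LATS1 and LATS2 phosphorylates YAP and its relative TAZ and keeps them out of the nucleus. When the cascade is off, YAP and TAZ bind TEAD factors on DNA, commonly at the sequence GGAATG, and switch on genes of growth, adhesion and matrix contact. Several of these targets, among them LATS2, AMOTL1 and AMOTL2, are themselves restraints on YAP. ANCO1 has been described as a repressor acting on a YAP co-activator complex, and the comparison therefore asks whether H3K27Ac at such targets differs when ANCO1 is lowered.

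The 24 ChIP-seq libraries formed 8 groups of 3. The lines were MCF10A (10A), a non-tumorigenic mammary epithelial line, and MCFDCIS (DCIS), a derivative of that lineage which models ductal carcinoma in situ. All cells had been infected with lentivirus and selected with puromycin. They carried a hairpin against ANCO1 (shANCO1) or a control hairpin against GFP (shCTRL). Both lines grew in medium with horse serum, EGF, hydrocortisone, insulin and cholera toxin. For each line and hairpin there were 3 H3K27Ac immunoprecipitations and 3 inputs, which were sonicated chromatin without immunoprecipitation. The study's figure legends name 1 hairpin, shANCO1 #3, for this work, so that its effect and that of ANCO1 loss cannot be told apart here. The labels do not say whether the 3 libraries of a group came from separate cultures.

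The deposited values are 1 log2 fold change and 1 false discovery rate (FDR) per region for whole groups, from the authors' csaw test of 3 libraries against 3. Values per library, read depth and replicate spread were unknown, and a difference is called here where its deposited FDR was under 0.05, with the direction that the tables give. The log2 fold change is that of a representative window of each region. Taken over every tested region, the median log2 fold change was 0.76 for 10A and 0.52 for DCIS. Both lie above 0, and the 10 genes are therefore also read against these medians. ANKRD11 itself carried no called change at its gene start, with 0.66 in 10A (FDR 0.0764) and -0.07 in DCIS (FDR 0.975). Over all its regions, 7 of 20 were called up in 10A and 8 of 16 in DCIS, with 0 down in either line. A hairpin acts on RNA, so this is no check of the knockdown. The comparisons with input list almost only enriched regions. Of 76271 such regions 2 were not enriched, and the lowest log2 fold change was 1.74. The highest FDR against input among regions of the 10 genes was 1.69e-08. A place described as not enriched is therefore one without a listed enriched region, and its value against input is unknown. H3K27Ac lay at the transcription start site (TSS) of 3 to 4 of 6 basal markers in every group, KRT5, ITGB4 and EGFR among them. Of the other basal markers, KRT17 had it in the DCIS groups only, TP63 in 10A shANCO1 cells only, and KRT14 in no group. The leukocyte, endothelial and fibroblast markers PTPRC, PECAM1 and COL1A1 had it in none of the 4 groups. The epithelial markers CDH1 and EPCAM had it in both DCIS groups, and in 10A it was found at EPCAM in shANCO1 cells only. Of 4 luminal markers, 2 had it in 10A shCTRL cells and 3 in each of the other groups. KRT8 and KRT18 had it in every group, GATA3 in all but 10A shCTRL, and ESR1 in none.

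In 10A, 31 of the 70 regions were called up in shANCO1 cells and 0 were called down, by the authors' csaw FDR. The 31 are 44.3%, beside a background of 43.6% up and 0.225% down over all tested regions. In each line and direction, this limit called more regions than the paper reports as significantly changed peaks. The calls here are therefore not the paper's own list of changed peaks. At an unadjusted deposited p under 0.05 the counts were 37 up and 0 down. The median log2 fold change of the 70 regions was 0.78, beside 0.76 for all regions, and 37 of 70 lay above the latter. Thus, in 10A these genes gained H3K27Ac about as often, and by about as much, as the rest of the tested chromatin. In DCIS, 23 of the 58 regions were called up and 2 down. This is 39.7% up, beside a background of 23.6% up and 4.86% down. AMOTL1 (7 of 8 regions up) and NUAK2 (5 of 6) gave most of these upward calls, and CCN2, AXL and ANKRD1 gave 0. The pooled share is thus not that of each gene. The median of the 58 regions was 1.08 against 0.52 for all regions, and 41 of 58 exceeded the table's median. The members' values ran from -2.65 to 4.05 in DCIS, where all tested regions ran from -7.39 to 7.80. In 10A they ran from -0.40 to 1.64, and all tested regions from -1.65 to 3.76.

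**Figure D1:**
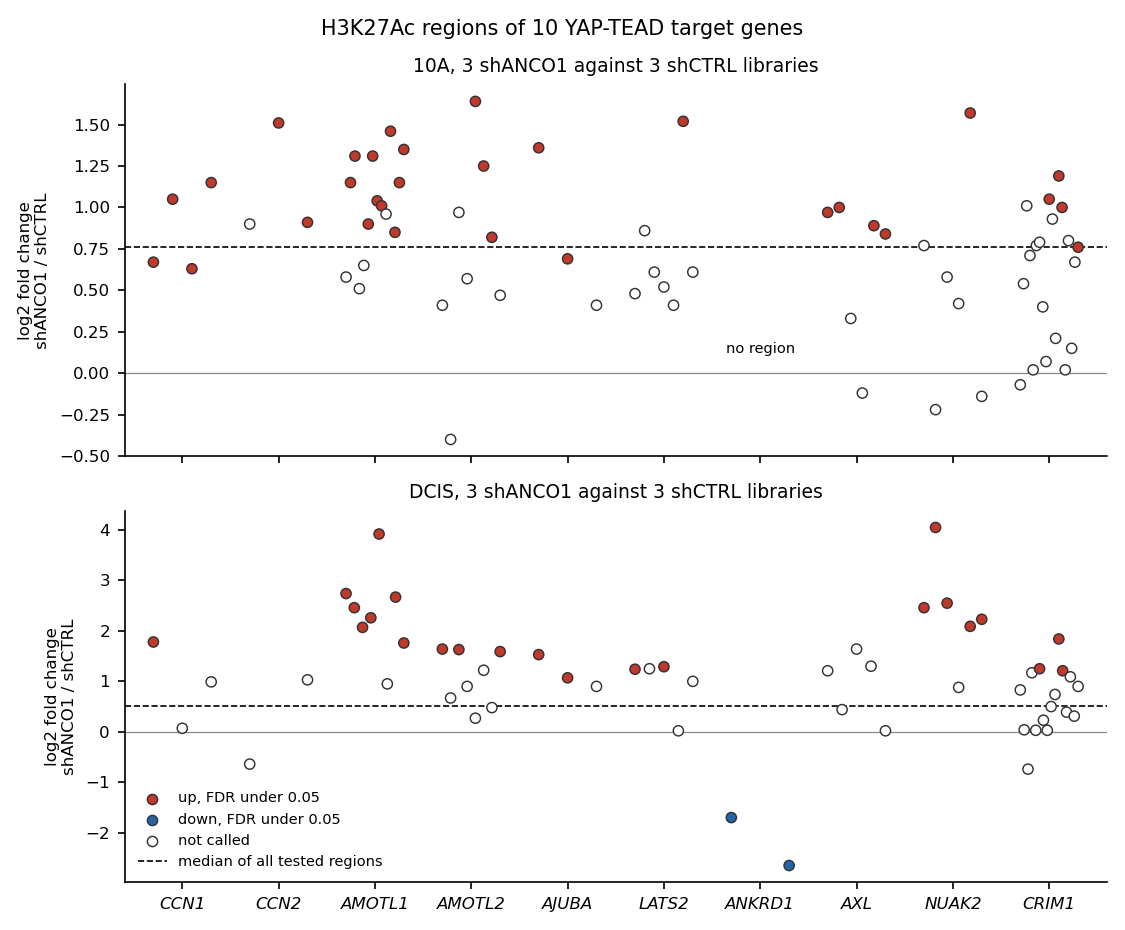
H3K27Ac log2 fold change of shANCO1 over shCTRL (y axis) for each tested region of the 10 genes (x axis), in 10A above and DCIS below. Each point is 1 region from 3 against 3 libraries and is filled red or blue where the deposited FDR was under 0.05. The dashed line marks the median of the whole table (10A 0.76, DCIS 0.52). AMOTL1 and NUAK2 stand highest in DCIS, and both ANKRD1 regions lie below 0.

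At the level of genes, 9 of the 9 members with a tested region in 10A had at least 1 region called up, where 77% of all tested protein-coding genes did. No member had a region called down in 10A, where the share over genes was 0.477%. In DCIS 7 of 10 members had a region called up, beside 31.9% of tested genes, and 1 of 10, ANKRD1, had regions called down, beside 6.73%. The members without an upward call in DCIS were CCN2, AXL and ANKRD1. A gene with many tested regions has more chances to be counted, and CRIM1 alone held 19 regions in 10A and 16 in DCIS.

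CCN1 and CCN2 encode secreted matricellular proteins that bind integrins, and they are the most commonly used readouts of YAP activity. All 4 CCN1 regions were called up in 10A. Over the gene (85581701 to 85585400 on chromosome 1) the log2 fold change was 1.15 (FDR 0.0402), and over the TSS (85578001 to 85581800) it was 0.63 (FDR 0.0243). The upstream pair, 3.06 kb and 7.76 kb from the TSS, gave 1.05 and 0.67. The TSS region was called up although it lay 0.14 below the 10A median, so that its gain was not greater than that of the typical region. In DCIS the far upstream region of CCN1 (85572301 to 85572800) was called up with 1.78 and an FDR of 0.00394. The TSS region was not called in DCIS (0.99, FDR 0.187), nor was the near upstream region (0.07, FDR 0.954). The authors' annotation places all 4 of the 10A regions and all 3 of the DCIS regions in the neighbour DDAH1 as well.

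At CCN2, the region over the TSS was called up in 10A (131951001 to 131952400 on chromosome 6, 1.51, FDR 0.00135). It overlapped a region enriched over input in shANCO1 cells but none in shCTRL cells. A region 2.53 kb upstream was also called up, at 0.91 (FDR 0.00574), and was enriched over input in both groups. The CCN2 TSS region was one of the 5 highest values of the 10 genes in 10A, at 0.75 above the median. In DCIS no region over the CCN2 TSS itself was listed. The upstream region stood at 1.03 there (FDR 0.0968) and a region within the gene at -0.64 (FDR 0.732), and neither was called, with 1 of the 2 up at an unadjusted p under 0.05. No CCN2 region was enriched over input in either DCIS group.

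The promoters of CCN1 and CCN2 are shown because both lie within regions called up in 10A and hold GGAATG. They are the 250 bases before the TSS on the strand of the gene in GRCh38, CCN1 from chr1:85580511-85580760 on the plus strand and CCN2 from chr6:131951373-131951622 on the minus strand. CCN2 is from the RefSeq promoter table (GRCh38.p14) and CCN1 from the genome sequence. Capitals mark GGAATG on either strand, which reads CATTCC where it lies on the other strand.
CCN1 promoter: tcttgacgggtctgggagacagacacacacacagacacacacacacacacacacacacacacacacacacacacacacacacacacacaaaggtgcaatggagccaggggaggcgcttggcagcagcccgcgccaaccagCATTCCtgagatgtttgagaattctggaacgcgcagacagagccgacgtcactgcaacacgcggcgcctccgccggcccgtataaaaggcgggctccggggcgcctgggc
CCN2 promoter: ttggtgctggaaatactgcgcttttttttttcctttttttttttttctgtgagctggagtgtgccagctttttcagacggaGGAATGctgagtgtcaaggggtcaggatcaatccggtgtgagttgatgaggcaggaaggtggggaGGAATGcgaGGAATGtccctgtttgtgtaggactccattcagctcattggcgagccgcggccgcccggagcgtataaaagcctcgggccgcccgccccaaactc

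CCN1 held 1 match in these bases and CCN2 held 3. A further site is shown from the upstream CCN2 region that was called up in 10A, because there GGAATG is followed directly by TGACTCA, the AP-1 consensus. It lies at chr6:131954861-131954926 and is printed on the plus strand, with both motifs in capitals.
CCN2 upstream site: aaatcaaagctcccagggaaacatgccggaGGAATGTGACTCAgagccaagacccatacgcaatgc

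AMOTL1 and AMOTL2 belong to the angiomotin family of junction scaffolds, which bind YAP and hold it outside the nucleus. In 10A, 10 of the 14 AMOTL1 regions were called up, with a median of 1.02 and a range from 0.51 to 1.46. The region with the lowest FDR lay in an intron (94745701 to 94749500 on chromosome 11, 1.31, FDR 9.85e-05). The highest value lay in another intronic region (94776101 to 94777500, 1.46, FDR 0.00186). In DCIS, 7 of its 8 regions were called up, with a median of 2.36 against 0.52 for all regions, and 56 of 67 tested windows were counted as up. The same intron (94746701 to 94749500) gave 3.92 in DCIS with an FDR of 1.54e-09 and all 25 of its windows up. At the upstream gene start (94705501 to 94707500) the value was 2.74 with an FDR of 1.72e-08 and all 17 windows up. The start was not called in 10A, where it gave 0.58 with an FDR of 0.248. The other AMOTL1 regions called up in DCIS spanned 1 to 3 windows each. None of them overlapped sequence enriched over input in either DCIS group. A second TSS, inside the gene, had similar values in the lines, and only its call differed. It was called up in 10A (94766701 to 94770300, 1.01, FDR 0.000141) and not in DCIS (0.95, FDR 0.0815). The authors' annotation also gives the antisense gene PIWIL4-AS1 for 6 of the 10A regions and 4 of the DCIS regions, from the upstream start onwards, and H3K27Ac carries no strand.

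Over input, AMOTL1 had no enriched region in DCIS shCTRL cells and 3 in DCIS shANCO1 cells, 1 at each of these starts and 1 in the intron, with log2 enrichments from 4.07 to 4.61. In 10A it had 7 enriched regions over 3 kb in shCTRL cells and 10 over 10.2 kb in shANCO1 cells. The sequences around the 2 GGAATG matches of the DCIS intron region are shown because that region carried the highest value of AMOTL1. They lie at chr11:94747916-94747981 and chr11:94748735-94748800 and are printed on the plus strand with the motif in capitals.
AMOTL1 intron site 1: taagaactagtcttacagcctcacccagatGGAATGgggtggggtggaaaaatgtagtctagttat
AMOTL1 intron site 2: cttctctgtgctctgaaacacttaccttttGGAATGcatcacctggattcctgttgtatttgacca

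AMOTL2 had 8 tested regions in each line, of which 3 were called up in each, at different places. In 10A these were the TSS (134371501 to 134376000 on chromosome 3, 0.82, FDR 0.0146) and a pair of regions inside the gene. Of this pair, 134362601 to 134366200 held the highest value of any member region in 10A, 1.64 with an FDR of 0.000833. In DCIS the TSS was not called (0.48, FDR 0.838). The 3 called regions there were downstream of the gene (134350301 to 134353500, 1.64, FDR 0.000329), over a coding exon (1.63, FDR 0.00186) and 6.02 kb upstream (1.59, FDR 0.00561). The downstream region is the place of the lowest member value in 10A, where 134350501 to 134353200 gave -0.40 (FDR 0.476), and its neighbour 134348401 to 134349700 gave 0.41 (FDR 0.584). The first of these was enriched over input in 10A shCTRL cells and not in 10A shANCO1 cells, and in DCIS the same place was enriched in shANCO1 cells only. Whether the lines differed there was not tested, because the tables hold no values per library.

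LATS2 is the kinase that phosphorylates YAP, and AJUBA is a LIM-domain protein that binds LATS kinases and lowers their activity. The LATS2 TSS in 10A (21060101 to 21062200 on chromosome 13) was called up with 1.52 and an FDR of 0.000809, and it was enriched over input in both 10A groups. The other 6 LATS2 regions in 10A were not called and ranged from 0.41 to 0.86. In DCIS a region just before the TSS stood at 1.00 (FDR 0.116) and one just inside the gene at 0.02 (FDR 0.998), and neither overlapped an enriched region. The 2 LATS2 regions called up in DCIS were both intronic. One of them spanned a single window (1.24, FDR 0.0489). The other (21032501 to 21036000, 1.29, FDR 0.00496) was enriched over input only in shANCO1 cells, with a log2 enrichment of 4.71. The same stretch of intron gave 0.52 (FDR 0.55) and 0.41 (FDR 0.361) in 10A. The LATS2 calls thus sat at the TSS in 10A and in introns in DCIS.

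For AJUBA, 2 of 3 regions were called up in each line, and they were the same 2 places. The region over a coding exon gave 1.36 in 10A (FDR 0.0168) and 1.53 in DCIS (FDR 0.0274). The region over the inner TSS gave 0.69 in 10A (FDR 0.0254) and 1.07 in DCIS (FDR 0.0195). The outer TSS missed the threshold in both, with 0.41 in 10A (22979801 to 22983600 on chromosome 14, FDR 0.0506) and 0.90 in DCIS (FDR 0.0771). The length of AJUBA enriched over input was 1.1 kb in DCIS shCTRL cells and 4.3 kb in DCIS shANCO1 cells. The authors' annotation also gives HAUS4 for all 3 regions of each line, and the divergent transcript AJUBA-DT for the pair at the TSSs.

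NUAK2, a kinase of the AMPK-related family, had the largest value of all member regions. A region downstream of the gene in DCIS (205297901 to 205299300 on chromosome 1) gave 4.05 with an FDR of 1.05e-08, and all 12 of its windows were up. The neighbouring downstream regions gave 2.46 (FDR 4.17e-06) and 2.55 (FDR 3.27e-05). Within an intron, 2 regions gave 2.23 (FDR 0.000476) and 2.09 (FDR 0.000221). The sixth region, at the end of the gene, was not called (0.88, FDR 0.376). In 10A only the intron was called up (205317701 to 205319800, 1.57, FDR 0.00279). The downstream region that was highest in DCIS stood at 0.58 in 10A (FDR 0.0979), and the NUAK2 TSS stood at -0.14 (FDR 0.933). The remaining 10A regions gave 0.77 (FDR 0.0796), 0.42 (FDR 0.464) and, over a single window, -0.22 (FDR 0.651). No NUAK2 region was listed as enriched over input in either DCIS group. The gain of 5 of 6 regions in DCIS thus lay where neither group had a listed enriched region, and the values against input there are unknown. In 10A the enriched length was 0.2 kb in shCTRL cells and 1.4 kb in shANCO1 cells.

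The 3 GGAATG matches of the downstream NUAK2 region are shown because it carried the largest change. They lie at chr1:205298592-205298657, chr1:205298683-205298748 and chr1:205299036-205299101 and are printed on the plus strand with the motif in capitals.
NUAK2 downstream site 1: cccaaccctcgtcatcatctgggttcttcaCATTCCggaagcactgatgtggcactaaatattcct
NUAK2 downstream site 2: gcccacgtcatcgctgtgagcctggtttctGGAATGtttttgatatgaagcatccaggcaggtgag
NUAK2 downstream site 3: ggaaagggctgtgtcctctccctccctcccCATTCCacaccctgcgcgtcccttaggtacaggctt

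**Figure D2:**
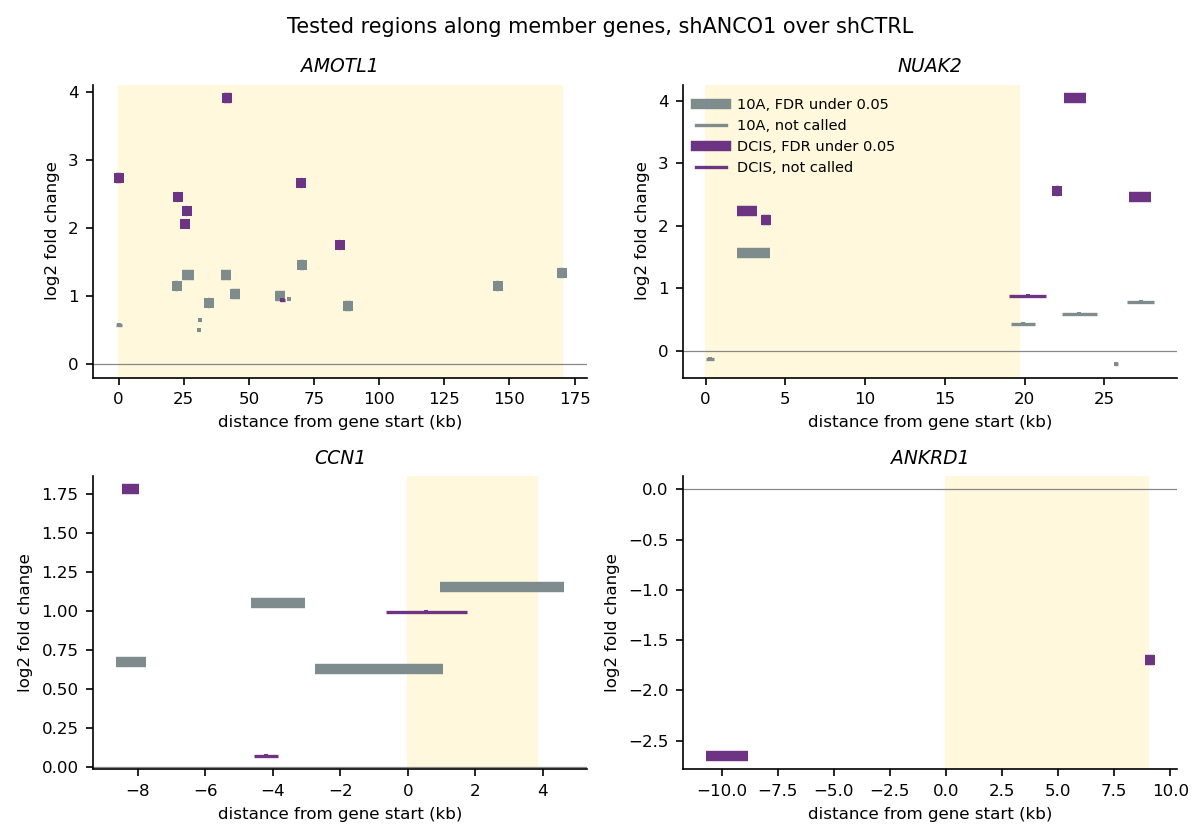
H3K27Ac log2 fold change of shANCO1 over shCTRL (y axis) along AMOTL1, NUAK2, CCN1 and ANKRD1, by distance from the gene start in kb in the direction of transcription (x axis, shaded over the gene). Each bar spans 1 tested region, grey for 10A and purple for DCIS, and is thick where the FDR was under 0.05, with a square at its midpoint so that narrow regions are seen. The DCIS bars of AMOTL1 and NUAK2 reach 3.92 and 4.05, and ANKRD1 has bars in DCIS only, both below 0.

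ANKRD1, a muscle-associated ankyrin repeat protein and a classical YAP target, was the exception in direction. It had no tested region in 10A and no region enriched over input in either 10A group. In DCIS both of its regions were called down. The upstream region, 8.81 kb from the TSS (90929901 to 90931800 on chromosome 10), fell by 2.65 on the log2 scale (FDR 0.000387), with 13 of 15 windows down. A region at the end of the gene (90911801 to 90912200) fell by 1.70 (FDR 0.018), with 2 of 3 windows down. The upstream one overlapped a region enriched over input in DCIS shCTRL cells (90930701 to 90931200, log2 enrichment 4.00, FDR 1.61e-10) and none in DCIS shANCO1 cells. The ANKRD1 TSS itself was in no listed region. The upstream region held 3 GGAATG matches, and 2 of them are shown because they lie within the part that was enriched in shCTRL cells, at chr10:90930922-90930987 and chr10:90931113-90931178, on the plus strand with the motif in capitals.
ANKRD1 upstream site 1: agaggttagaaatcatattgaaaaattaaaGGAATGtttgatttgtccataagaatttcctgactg
ANKRD1 upstream site 2: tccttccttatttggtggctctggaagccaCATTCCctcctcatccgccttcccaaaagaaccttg

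AXL is a receptor tyrosine kinase for the ligand GAS6. In 10A, 4 of its 6 regions were called up, all between 0.84 and 1.00. They included the outer TSS (41217901 to 41223000 on chromosome 19, 0.97, FDR 0.00128) and the inner TSS (1.00, FDR 0.000589). The other called pair lay at the end of the gene and beyond, where they also overlap HNRNPUL1, and the outermost of them (41264601 to 41267800, 0.84) had the lowest FDR of the gene in 10A, 0.000429. The uncalled pair was intronic, at 0.33 (FDR 0.446) and -0.12 (FDR 0.816). The AXL length enriched over input was 2.1 kb in 10A shCTRL cells and 8.1 kb in 10A shANCO1 cells. In DCIS none of the 5 AXL regions was called by csaw, although the inner TSS (41223101 to 41227400) stood at 1.64 with an FDR of 0.0513 and the outer TSS at 1.21 with an FDR of 0.0863. Both missed the threshold, and 2 of the 5 regions were up at an unadjusted csaw p under 0.05. The other AXL regions in DCIS stood at 1.30 (FDR 0.331), 0.44 (FDR 0.556) and, farthest downstream (41264201 to 41267600), 0.02 (FDR 0.985).

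CRIM1, a transmembrane protein with cysteine-rich repeats that binds bone morphogenetic proteins, had the most regions and the strongest mark. In 10A 4 of 19 regions were called up, with values from 0.76 to 1.19, and in DCIS 3 of 16, with values from 1.21 to 1.84. An intronic region about 82 kb from the TSS was called in both lines, at 1.05 in 10A (36437601 to 36439400 on chromosome 2, FDR 0.000723) and 1.84 in DCIS (FDR 0.00155). So was an intronic region about 104 kb from the TSS, at 1.19 in 10A (FDR 0.00291) and 1.21 in DCIS (FDR 0.00471). The strongest acetylation of the gene lay closer to the TSS, also within an intron. A domain of 4600 bp (36367401 to 36372000) reached a log2 enrichment of 7.90 over input in DCIS shCTRL cells, the highest of any member region. The direct comparison called no change there, with 0.04 (FDR 0.99) and -0.74 (FDR 0.499) in DCIS and 0.54 (FDR 0.285) and 1.01 (FDR 0.0566) in 10A. The regions called up in CRIM1 were thus other regions than the most acetylated one. No region was listed over the CRIM1 TSS. The nearest lay 9.62 kb away in 10A (-0.07, FDR 0.896) and 8.82 kb away in DCIS (0.83, FDR 0.214). The lowest CRIM1 values over at least 5 windows in 10A were 0.15 (36489001 to 36490000, FDR 0.824) and 0.40 (FDR 0.545). In DCIS a region of the same gene stood at 0.03 (36380801 to 36382100, FDR 0.993). One 10A region called up (0.76, FDR 0.000359) lies beyond the gene and over its neighbour FEZ2.

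The comparison with input gave the genes with at least 1 listed enriched region. A member region was enriched at 9 of 10 genes in 10A shCTRL cells and 9 in 10A shANCO1 cells, where 40.3% and 62.4% of protein-coding genes had one. In DCIS 5 members had one in shCTRL cells and 7 in shANCO1 cells, beside 47.3% and 50.2%. Within 1 kb of a TSS, 6 members were marked in 10A shCTRL cells and 7 in 10A shANCO1 cells, beside 26.9% and 48.8% of genes. In DCIS 3 members were marked there in shCTRL cells and 5 in shANCO1 cells, beside 35.7% and 37% of genes. CCN2 was the member with TSS marking in 10A shANCO1 cells only, and CCN1 and AMOTL1 were those with it in DCIS shANCO1 cells only. The members' enriched length was 22.8 kb and 52.4 kb in 10A shCTRL and shANCO1 cells, against 9035 kb and 25252 kb over the genome. In DCIS it was 11.7 kb and 19.3 kb, against 10957 kb and 11870 kb. The median log2 enrichment of the members was 3.32 and 3.38 in 10A and 3.85 and 4.45 in DCIS, close to the 3.32, 3.40, 4.09 and 4.47 of all enriched regions in the same order.

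**Figure D3:**
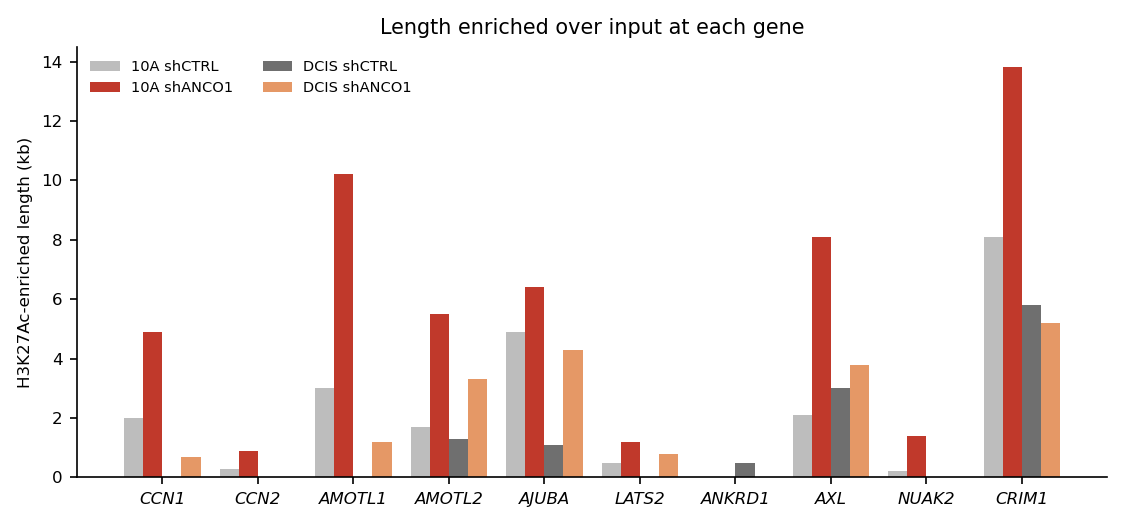
Length enriched for H3K27Ac over input (y axis, kb, sum of enriched regions) at each of the 10 genes (x axis) in the 4 groups, with 3 immunoprecipitated libraries behind each group and no value per library. CRIM1 had the longest marked sequence in 10A shANCO1 cells (13.8 kb), ANKRD1 was marked only in DCIS shCTRL cells (0.5 kb), and CCN2 and NUAK2 had no bar in DCIS.

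Of the 31 regions called up in 10A, 18 overlapped sequence enriched over input in both groups, 7 in shANCO1 cells only and 6 in neither. Over all 10A regions called up, 34.5% overlapped enriched sequence in both groups, beside 58.1% of the members' regions. For shANCO1 cells only the shares were 35.5% and 22.6% in the same order, and for neither group 29.9% and 19.4%. These shares were not matched for width. Of the 31 member regions, 28 were 1000 bp or wider, against 16134 of the 21913 called up over all. In DCIS 0 of the 23 regions called up were enriched in both groups, where 13.9% of all upward calls were. A further 7, or 30.4%, were enriched in shANCO1 cells only, beside 24.5% of all upward calls. The remaining 16, or 69.6%, were enriched in neither, beside 61.5%.

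By position, in 10A 9 of 13 regions within 1 kb of a TSS were called up (69.2%), and 10 of 35 purely intronic ones (28.6%). The same positions relative to every protein-coding gene that the annotation named gave 60.4% and 35.8% in 10A. In DCIS 2 of 10 regions at a TSS were called up (20%), beside 7.74% for all such genes. In introns the count was 13 of 29 (44.8%), beside 28.6%, and downstream of the gene it was 4 of 7 (57.1%), beside 16.9%. The DCIS regions at a TSS that were called up belonged to AMOTL1 and AJUBA.

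Of the 70 regions in 10A, 46 overlapped a DCIS region of these genes by at least 1 bp. Both lines were called up at 11 of the 46, only 10A at 14, only DCIS at 10 and neither at 11. These are 23.9%, 30.4%, 21.7% and 23.9% of the 46. Over the 29259 regions of 10A that overlapped any DCIS region, the shares in the same order were 16.3%, 33.7%, 12.8% and 34.4%. There the partner could be any DCIS region, whereas that of a member region had to be assigned to these genes. The 11 shared calls lay in CCN1, AMOTL1, AJUBA, NUAK2 and CRIM1. A call in 1 line and not in the other does not show that the lines differ, and that difference could not be tested from these values. A further 6 of the 10A calls had no DCIS region of these genes to compare with. Conversely, 11 DCIS regions had no partner among the 10A regions of these genes, and 2 of them were called up. The ANKRD1 regions are among these 11.

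**Figure D4:**
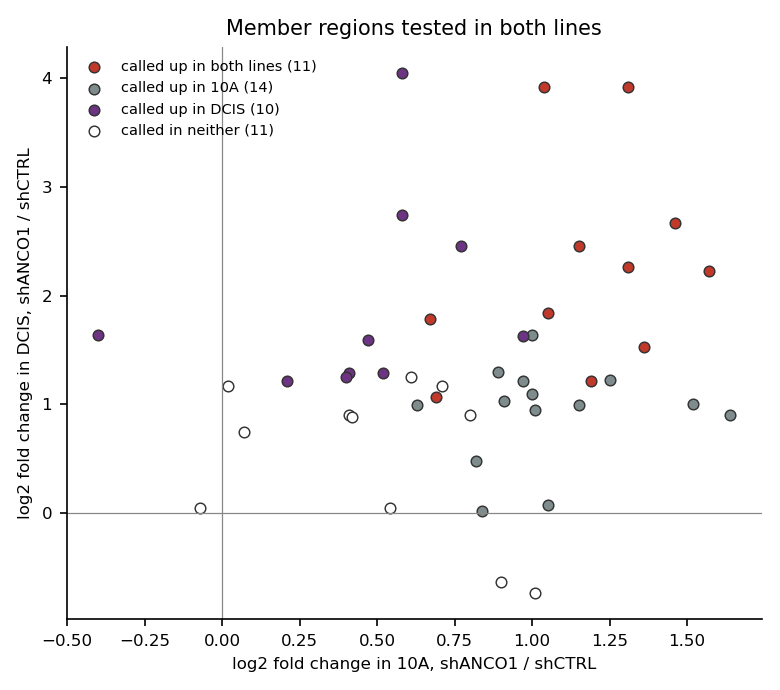
Log2 fold change of shANCO1 over shCTRL in 10A (x axis) and in DCIS (y axis) for the 46 regions of these genes in 10A that overlap a DCIS region, each drawn against the DCIS region it shares most bases with. A DCIS region can stand for more than 1 point. Colour gives the line in which a region was called, and the shared calls (11) lie between 0.67 and 1.57 in 10A and between 1.07 and 3.92 in DCIS.

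The regions were searched for GGAATG on both strands. In 10A 44 of 70 member regions held it, or 62.9%, beside 48.8% of all tested regions. In DCIS 34 of 58 held it, or 58.6%, beside 45.1%. Long regions can hold more matches, and the members' regions were longer, with a median of 1500 bp against 1000 bp in 10A and 1300 bp against 900 bp in DCIS. Among regions of 1000 bp or more, 86.7% of member regions and 69.6% of all regions held GGAATG in 10A, and 87.1% and 68.5% in DCIS. Shorter member regions held it in 20% of cases in 10A, beside 25.5% of all shorter regions, and DCIS gave 25.9% beside 24%. In the 500 bp at the midpoint of each region the shares were 27.1% of member regions and 27.9% of all regions in 10A, and 32.8% and 27.1% in DCIS. Among regions called up, 29 of 31 in 10A held the motif somewhere (93.5%), beside 60.5% of all regions called up. In DCIS 14 of 23 did (60.9%), beside 49.3%. Among called regions of 1000 bp or more, the shares were 92.9% of the members' and 72% of all in 10A. In DCIS they were 91.7% and 73.7%. Regions within this class were not matched for width. The 10 genes are named for TEAD binding, so a high share of GGAATG in their regions is no independent observation. The AP-1 consensus, TGACTCA or TGAGTCA, which are reverse complements of each other, was in 30% of member regions and 30.6% of all regions in 10A. In DCIS it was in 20.7% and 25.8%. Within 500 bp around the midpoints, AP-1 matches were found in 10% of the 10A member regions, beside 18.3% of all regions, and in 8.62% of the DCIS member regions, beside 15.4%. GGAATG can share its last bases with TGACTCA, and such matches would count for both motifs.

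The promoters were also compared. In the 250 bases before each start in the RefSeq table, which holds 11 promoters of 8 of the 10 genes, GGAATG was in 6 promoters, those of AJUBA, AMOTL2, ANKRD1, AXL, CCN2 and NUAK2. Over all 35116 promoters of the table the share was 11.9%. The AP-1 consensus was in 0 of the 11 and in 4.2% of all. The 10 genes are named for TEAD binding, so a high share of the TEAD motif at their promoters is no independent observation. The AMOTL2 promoter with a match is shown because it lies in a region called up in 10A, from chr3:134374448-134374697 on the minus strand of GRCh38, credited to the same RefSeq table.
AMOTL2 promoter: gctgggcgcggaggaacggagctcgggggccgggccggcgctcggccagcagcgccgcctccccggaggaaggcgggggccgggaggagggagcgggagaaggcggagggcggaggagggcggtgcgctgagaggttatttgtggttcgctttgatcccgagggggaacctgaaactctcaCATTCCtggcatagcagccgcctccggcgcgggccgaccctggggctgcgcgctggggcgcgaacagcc

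Other genes of the pathway were counted in the same way. Of 14 further YAP and TAZ signature genes, 13 had tested regions in 10A, where 75 of 155 regions were called up and 0 down (48.4%). In DCIS 47 of 135 were called up and 4 down (34.8%). The members of the Hippo kinase cascade and its upstream regulators, which oppose YAP, had 71 of 154 regions up in 10A (46.1%) and 46 of 113 up in DCIS (40.7%), with 0 and 4 down. PTPN14 is on both lists. Pooled over their genes, both lists were near the 10A background of 43.6% and above the DCIS background of 23.6%, as the 10 targets were. In DCIS, WWC1 (11 of 14 regions), STK3 (10 of 16) and FRMD6 (9 of 13) gave most of the Hippo list's upward calls. STK4, MOB1B, LATS1, TAOK1 and TAOK2 gave 0 there. The genes of YAP, TAZ, TEAD and VGLL proteins had 32 of 76 regions up in 10A (42.1%) and 18 of 73 in DCIS (24.7%). Both shares were near the background of their line.

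The lowest FDRs among these other genes in 10A were those of NT5E, which encodes the ecto-enzyme CD73 (1.34, FDR 3.77e-08), of WWTR1, which encodes TAZ (1.15, FDR 1.74e-06), and of VGLL4, a TEAD-binding antagonist of YAP (1.19, FDR 2.13e-06). In DCIS they were those of ASAP1, a regulator of ARF GTPases (5.05, FDR 3.38e-13), of FRMD6, an upstream Hippo regulator (2.67, FDR 3.03e-09), and of NT5E (4.37, FDR 3.58e-09). NT5E was on this list in both lines.

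Several member calls stood close to the threshold. In 10A regions of CRIM1 (FDR 0.0501), AJUBA (FDR 0.0506), AMOTL1 (FDR 0.0508) and AMOTL2 (FDR 0.053) fell just outside it. An intronic AMOTL1 region (94740801 to 94741600, 0.90, FDR 0.0482) fell just inside in 10A. In DCIS the inner TSS of AXL (FDR 0.0513) fell just outside, and an intronic LATS2 region (1.24, FDR 0.0489) just inside.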

How the data were processed

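H3K27Ac ChIP-seq and input libraries were sequenced in pairs of reads in 2 lines and 2 hairpins, 3 libraries per group (24 in all). Per the study's methods, reads were checked with FastQC, aligned to GRCh38 with BWA and Rsubread and deduplicated with SAMtools, differential binding came from csaw, and genes were annotated with ChIPpeakAnno. The window filter, merging distance and normalization are not given in the sources used here, and normalization sets the zero of every fold change.

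The deposited log2 fold changes are the authors' values for 1 representative window per region. The deposited p-values and FDRs were computed by the authors from whole groups, so they reflect the spread between 3 libraries, which may be technical. The deposited numbers of windows count tests, not reads. Depth was unknown.

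Regions were assigned to the 10 genes by the tables' annotation. A call needed FDR under 0.05 and the tables' direction. No further test was run. TSSs were gene starts and the starts of basic protein-coding transcripts (GENCODE release 44), and a region within 1 kb counted as at the TSS. Overlap was at least 1 bp, and coordinates are 1-based. Regions of the 2 lines were paired by most shared bases. Motif and overlap steps were tested on simulated data (Python 3.11.15, pandas 2.3.3, numpy 2.4.6). The members, gene lists and alternatives were chosen with earlier results of these data known. The text names, per gene and line, the region nearest a TSS and that with the lowest FDR, per line the 5 highest and 5 lowest values over at least 5 windows, and of other pathway genes the 3 with the lowest FDR per line. Other examples were chosen after their values were seen.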

Additional observations from a re-analysis of the deposited data

How the results depend on the processing

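Alternatives changed the FDR limit, the size of change, the centring, the direction rule, the minimum of 5 windows, the annotation column, the TSS distance or the motif window, and 44 of 62 values stayed within 1.5 times the reported one. Among the 44 are the counts of regions enriched over input at FDR under 0.01. These could not move, because every listed region of the 10 genes lay far below that limit. Taking direction from the sign of the fold change also altered no count. In 10A the 31 regions called up became 18 at FDR under 0.01, 19 at a log2 fold change of at least 1, and 0 at 1 or more above the median of the line, which also leaves 0 genes. In DCIS the 23 upward calls became 13 with at least 5 windows, and the 2 downward calls became 1 at FDR under 0.01, with at least 5 windows or by the overlap column alone. At FDR under 1e-10, enriched regions fell from 36 to 14 in 10A shCTRL cells and from 14 to 5 in DCIS shCTRL cells. Members marked at a TSS numbered 1 in 10A shCTRL, 0 in DCIS shCTRL and 2 in DCIS shANCO1 cells when the region had to contain the TSS base, and 1 in DCIS shCTRL cells at FDR under 1e-10. In the 500 bp midpoint window GGAATG was in 19 member regions in 10A and 19 in DCIS, and the AP-1 consensus in 7 and 5. Fewer bases or stricter limits give fewer by construction, and other causes were not tested. No paired analysis was possible because the tables hold group values only. Leaving out a library could not be run for the same reason, and unknown depth limits every uncalled value.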
